A study of Mus musculus with 12 samples.

Results

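The liver response to dexamethasone, a synthetic glucocorticoid, was measured in male mice without Hdac6, which encodes a mainly cytoplasmic protein deacetylase. The comparison took 6 of the 12 arrays of the study, chosen by their titles: 3 from dexamethasone-treated knockout livers and 3 from vehicle-treated knockout livers. All 6 animals carried the C57Bl/6 HDAC6 Y/- genotype, so both groups lacked the gene and, by the labels, differed in the drug. The drug was given intraperitoneally at 1 mg/kg over 3 weeks, and each array came from a different animal. The labels give no age, allele construct, vehicle dose, hour of tissue collection or interval between the last injection and collection. The other 6 arrays, from wild-type animals under the same treatments, entered the estimate of the spread and 1 test of the difference between genotypes.

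Glucocorticoids act through the glucocorticoid receptor, which waits in the cytoplasm in a complex with the chaperone Hsp90 and moves to the nucleus once it binds a steroid. There it binds DNA at palindromic response elements and raises or lowers transcription. In liver the receptor is best known for switching on glucose production and amino acid breakdown, for supporting the acute-phase response, and for damping inflammatory genes. Hdac6 is known to deacetylate Hsp90 and tubulin, and the comparison covers the transcripts that the drug alters in liver when this enzyme is missing.

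All values are on the log2 scale of the deposited intensities, on which 1 unit is a doubling. Changes are dexamethasone minus vehicle with the standard error (SE) of the limma fit, n = 3 arrays a group, and a gene "passed", "rose" or "fell" when its Benjamini-Hochberg adjusted p in that fit was under 0.05. Array medians lay between 3.13 and 3.21, correlations were 0.988 to 0.991 within groups and 0.981 to 0.984 between them, and the first principal component (58.8% of the variance) separated the treatments. The targeted gene Hdac6 read 4.40, 4.07 and 3.90 in the vehicle livers and 3.62, 3.89 and 3.75 in the dexamethasone livers. Its group means of 4.12 ± 0.26 (SD) and 3.75 ± 0.14 lay under the wild-type means of 6.20 ± 0.20 with vehicle and 5.99 ± 0.17 with dexamethasone. The drug did not change Hdac6 beyond the threshold (-0.37 ± 0.14, adjusted p = 0.167). Vehicle array 3 carried transcripts of the exocrine pancreas: Cpa1, a pancreatic carboxypeptidase, read 3.20, 3.22 and 10.72 with vehicle and 2.99, 4.09 and 3.14 with the drug. List counts that changed without this array are also given without it.

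Dexamethasone raised 784 of 17904 tested genes (4.38%) and lowered 701 (3.92%), 1485 in all (8.29%). The rises were the larger changes. At least 2-fold changes numbered 256 rises and 132 falls, at least 4-fold 66 and 9, and at least 8-fold 27 and 2. Among the 1485, the groups were without overlap in 1471; over all tested genes 11.7% lay wholly higher and 12.6% wholly lower. The median change over all genes was -0.01. Without vehicle 3, 584 genes were higher (3.26%) and 454 lower (2.54%), and 990 of the 1485 kept their call. In bulk liver, fewer cells of a type and less RNA per cell cannot be told apart.

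**Figure D1:**
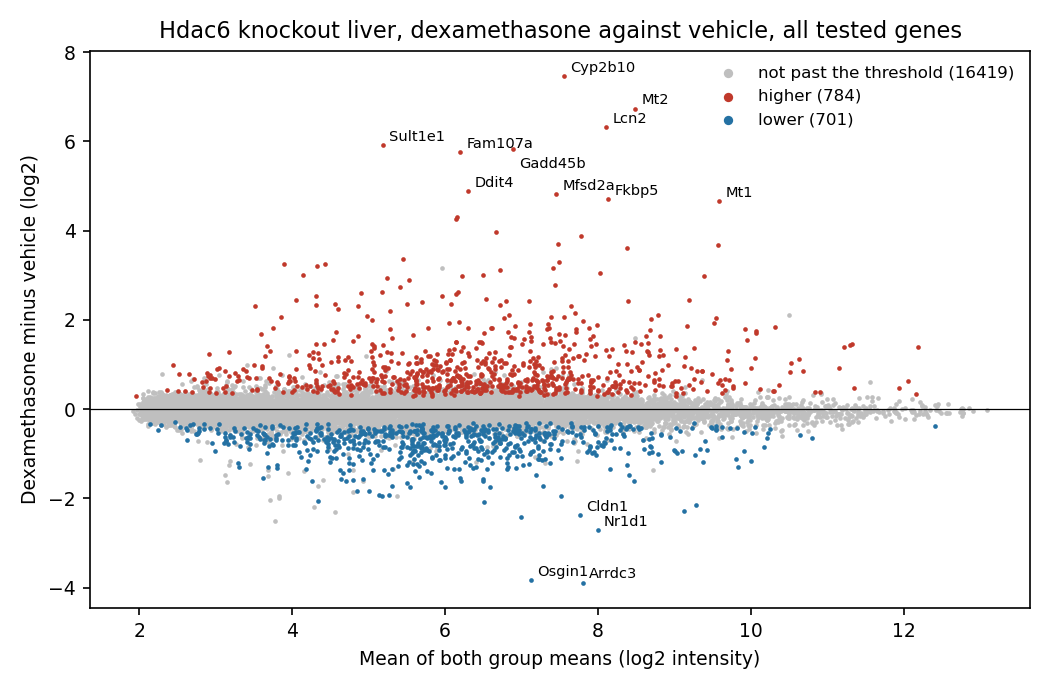
Change with dexamethasone (log2, vertical axis) against the mean of both group means (log2 intensity, horizontal axis) for the 17904 tested genes of Hdac6 knockout liver, with the 784 higher genes in red and the 701 lower genes in blue. The rises reach 7.46 for Cyp2b10, and the falls end at -3.88 for Arrdc3.

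Promoter letters are shown first, because some of the genes with the steepest rises hold motifs of known regulators upstream of their start. RefSeq (GRCm38.p6) gave promoters for 14094 of the tested genes. A relaxed form of the glucocorticoid response element, a palindrome of the letters GNACA, any 3 bases and TGTNC that reads alike on both strands, was found in 156 of 32851 promoters (0.475%), each 250 bases before to 50 after a start. By gene, it was found for 67 of the 14094 (0.475%), 10 of 635 higher genes (1.57%) and 1 of 577 lower genes (0.173%). These shares are descriptions, and a match is not shown to be a bound site. The 5 matches of higher genes below, with 8 flanking bases a side and the palindrome in capitals, belong to the 5 of these genes with the largest rises or an acute-phase role, a choice made after the values were seen. In this order the genes changed by 5.76, 4.67, 3.12, 2.25 and 1.43 with dexamethasone.
Fam107a (chr14:8309877-8309905, minus strand): ggtggcttGGACATGGTGTTCtgagtctc
Mt1 (chr8:94178987-94179015, plus strand): cactatagGGACATGATGTTCcacacgtc
Sgk1 (chr10:21993694-21993722, plus strand): tgcggaaaGAACAGAATGTTCtcggagat
Map3k6 (chr4:133240629-133240657, plus strand): gaatagggGCACAGGCTGTTCcggaagtg
Serpina3n (chr12:104406622-104406650, plus strand): agcacagaGCACAGCTTGTCCatgccagc
The Sgk1 match also has the full palindrome, AGAACA, any 3 bases and TGTTCT, which only 3 of the 32851 promoters held. For Fam107a another promoter, with upstream bases chr14:8317608-8317857, held no match to the relaxed palindrome.

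The neighbouring metallothionein genes Mt1 and Mt2 encode small zinc-binding proteins and are known targets of both glucocorticoids and metals. Their 250 bases upstream of the start are printed because both rose steeply. Capitals mark the relaxed palindrome and the metal response element cores TGCGCNC and TGCACNC, searched on both strands and found in 15.4% and 12.6% of all promoters. By gene, the TGCGCNC core was found for 25.5% of tested, 33.5% of higher and 31.0% of lower genes, and the TGCACNC core for 15.3%, 14.5% and 19.2%.
Mt1 (chr8:94178839-94179088, plus strand): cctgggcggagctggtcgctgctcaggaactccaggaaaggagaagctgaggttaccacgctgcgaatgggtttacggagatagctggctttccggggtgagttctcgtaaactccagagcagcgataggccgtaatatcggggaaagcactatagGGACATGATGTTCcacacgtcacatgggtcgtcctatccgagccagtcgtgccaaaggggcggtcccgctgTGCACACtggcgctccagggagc
Mt2 (chr8:94172368-94172617, plus strand): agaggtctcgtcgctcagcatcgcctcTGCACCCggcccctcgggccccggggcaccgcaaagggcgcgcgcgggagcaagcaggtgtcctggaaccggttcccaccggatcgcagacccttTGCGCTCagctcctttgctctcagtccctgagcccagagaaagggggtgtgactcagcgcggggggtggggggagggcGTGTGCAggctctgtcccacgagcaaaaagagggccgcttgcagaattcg
The printed window of Mt1 held 1 relaxed palindrome and 1 metal core, and that of Mt2 held 3 metal cores. The promoters behind the shares also run past the start, beyond the printed bases. There Mt1 held a TGCACNC core from position 3 and a TGCGCNC core from position 21, and Mt2 held a TGCGCNC core from position 5. The clock gene Ciart is printed for its E-boxes, the letters CACGTG in capitals, which are alike on both strands and are bound by circadian activators. Its window held 3, while 7.15% of all promoters held any and 0.594% held at least 2.
Ciart (chr3:95882229-95882478, minus strand): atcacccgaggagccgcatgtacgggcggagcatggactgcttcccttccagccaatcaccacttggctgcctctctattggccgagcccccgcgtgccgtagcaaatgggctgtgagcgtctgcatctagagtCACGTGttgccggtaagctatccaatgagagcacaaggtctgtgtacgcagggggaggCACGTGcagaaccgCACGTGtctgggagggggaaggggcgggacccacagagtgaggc

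Known glucocorticoid-induced regulators rose together: of 34 tested, 24 were higher and 0 lower (28 and 0 at an unadjusted p under 0.05), with a median change of 1.78 against -0.01 over all genes. Like the other lists below, this list was assembled with earlier results of these arrays known and is no independent evidence of its direction. Without vehicle 3 the counts were again 24 and 0. Fkbp5, a co-chaperone that lowers the receptor's affinity for steroid, read 5.40, 6.10 and 5.84 with vehicle and 10.31, 10.55 and 10.61 with the drug. Tsc22d3, the glucocorticoid-induced leucine zipper, went from 5.72, 5.05 and 5.14 to 7.75, 7.77 and 7.78. Both genes were far apart between the groups, with the 3 treated livers nearly level. Fkbp5 rose 26.2-fold (4.71 ± 0.22, adjusted p = 3.22e-08) and Tsc22d3 5.52-fold (2.46 ± 0.17, adjusted p = 1.27e-06).

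Stress and growth-arrest genes stood among the largest rises. Gadd45b, a stress-response gene, read 4.49, 3.89 and 3.53 with vehicle against 9.52, 9.98 and 9.90 with the drug, a rise of 5.83 ± 0.21. Ddit4, an inhibitor of mTORC1 signalling, read 4.33, 3.97 and 3.28 against 8.79, 8.69 and 8.74 (4.88 ± 0.31). For both, the gap between the groups was several times the spread within either. The related Gadd45g was scattered among the vehicle livers, at 3.96, 5.62 and 7.29, and level under the drug, at 9.40, 9.33 and 9.22. It rose by 3.69 ± 0.59 (adjusted p = 0.00127), and by 4.53 without vehicle 3, the highest of its group. The third family member, Gadd45a, fell instead (-1.09 ± 0.14), from 5.21, 4.82 and 5.32 to 4.03 in each treated liver. Fam107a, an actin-linked gene known to respond to stress hormones, rose from 3.25, 3.32 and 3.39 to 8.91, 8.58 and 9.75 (5.76 ± 0.26). Mfsd2a, a transporter of lysophospholipids, varied in the vehicle livers, at 5.22, 3.76 and 6.15, but all treated livers lay above them at 10.07, 9.76 and 9.77 (4.82 ± 0.55).

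Most of the receptor machinery did not pass. Of 22 genes of the receptor, related receptors and chaperones, 3 were higher and 1 lower (1 and 1 without vehicle 3). These were 13.6% and 4.55%, against 4.38% and 3.92% of all genes, and the list median was 0.03. Fkbp5, given above, belongs to this list and was its largest rise. The glucocorticoid receptor gene Nr3c1 read 7.86, 7.76 and 7.88 with vehicle and 7.36, 7.43 and 7.68 with the drug, lower in every treated liver but not past the threshold (-0.35 ± 0.14, adjusted p = 0.206). The mineralocorticoid receptor gene Nr3c2 fell from 5.48, 6.18 and 6.00 to 5.15, 4.33 and 4.07 (-1.37 ± 0.24, adjusted p = 0.0023). The Hsp90 gene Hsp90aa1 differed by -0.01 ± 0.19 and its other probe sets by 0.02 and -0.03. The fall in Nr3c2 was thus the one decrease of this list that passed.

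**Figure D2:**
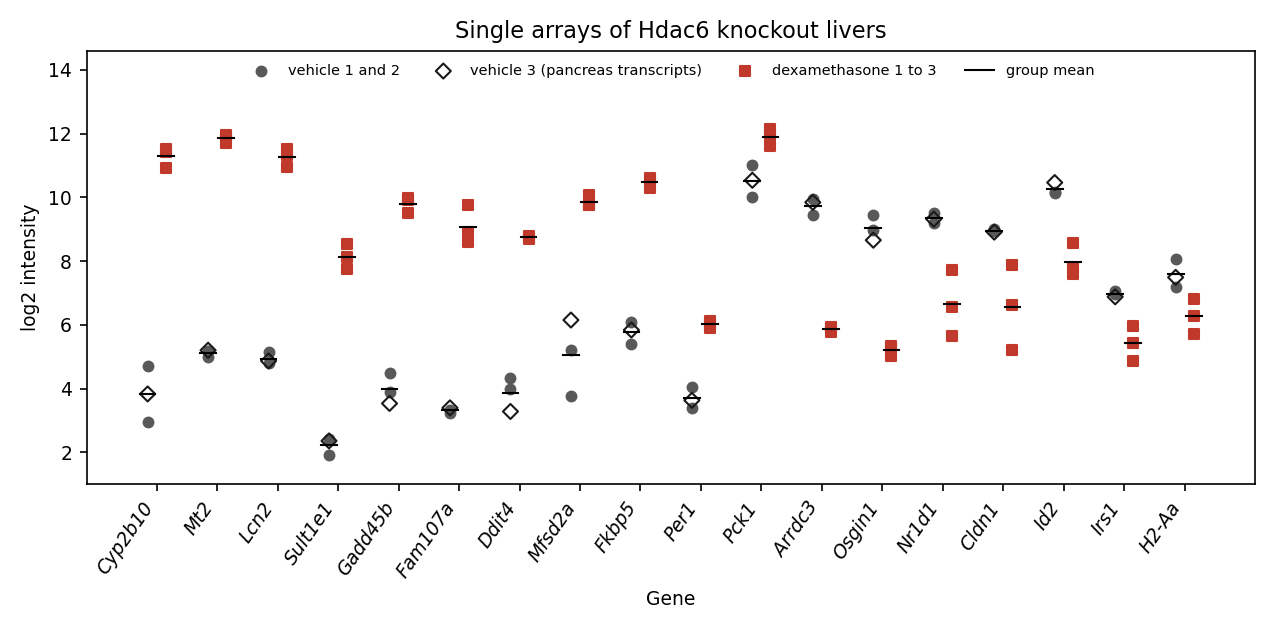
Log2 intensity (vertical axis) of 18 genes in each of the 6 knockout arrays, with vehicle 1 and 2 as filled circles, vehicle 3 as an open diamond, the 3 dexamethasone arrays as squares and group means as lines. For each gene shown the groups are apart; Mfsd2a and Cyp2b10 scatter most under vehicle, and Nr1d1 and Cldn1 scatter most under the drug, from 7.73 to 5.64 and from 7.88 to 5.22.

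In metal handling the metallothionein genes Mt1 and Mt2 rose steeply. Mt2 read 4.99, 5.17 and 5.20 with vehicle and 11.96, 11.90 and 11.70 with the drug, and Mt1 read 7.05, 7.39 and 7.31 against 12.05, 12.02 and 11.69. The treated livers were nearly level for both genes. Mt2 rose 106-fold (6.73 ± 0.14, adjusted p = 8.69e-12) and Mt1 25.5-fold (4.67 ± 0.21, adjusted p = 2.12e-08), and since the genes are closely related, their probes may share some transcript. Of 25 metallothionein and zinc transporter genes, 3 were higher and 2 lower, with a median of 0.00. The related gene Mt3 did not pass (-0.25 ± 0.11, adjusted p = 0.208), although all its treated livers lay lower. The third riser was the zinc importer Slc39a14 (1.32 ± 0.16), and the 2 that fell were the exporters Slc30a10 (-1.23 ± 0.20), which is known to carry manganese, and Slc30a1 (-0.64 ± 0.13), which lost its call in the 8 arrays without pancreas transcripts (-0.66, adjusted p = 0.0508). Of 22 iron genes, 4 were higher and 3 lower (5 and 1 without vehicle 3). Tfrc, the transferrin receptor, rose from 5.90, 5.40 and 5.85 to 6.73, 7.01 and 7.94 (1.51 ± 0.27), the metalloreductase gene Steap4 rose by 1.83 ± 0.21, and Hjv, the hemojuvelin co-receptor that promotes hepcidin expression, fell from 8.07, 7.63 and 7.63 to 6.58, 6.62 and 6.76 (-1.13 ± 0.13). Hepcidin itself, Hamp, overlapped between the groups (-0.21 ± 0.34, adjusted p = 0.855).

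Drug and hormone metabolism held the largest single change. Cyp2b10, a cytochrome P450 known as a target of the nuclear receptor CAR, read 4.71, 2.94 and 3.83 with vehicle and 10.93, 11.43 and 11.51 with the drug. It rose 177-fold (7.46 ± 0.58, adjusted p = 3.26e-06), with all treated livers far above the scattered vehicle livers. Of 36 genes of P450 families 1 to 3 and their receptors, however, 4 were higher and 1 lower, and the median was -0.10. The pregnane X receptor gene Nr1i2 rose by 0.58 ± 0.10 and the aryl hydrocarbon receptor gene Ahr by 1.41 ± 0.28, with treated livers at 8.74, 9.08 and 8.02 against 7.15, 7.26 and 7.19. Cyp2u1, a fatty acid hydroxylase, fell from 7.79, 7.48 and 7.66 to 6.37, 6.50 and 6.29 (-1.25 ± 0.16). Among 38 conjugation enzymes, 3 were higher and 1 lower. The oestrogen sulfotransferase Sult1e1 read 2.42, 1.91 and 2.36 with vehicle, close to the arrays' 20th percentiles of 2.18 to 2.22, and 7.76, 8.12 and 8.54 with the drug. Its change of 5.91 ± 0.23 therefore starts from a level near background. The sulfotransferase Sult1d1 (1.76 ± 0.20) and the nicotinamide methyltransferase Nnmt (1.21 ± 0.16) rose too, and the aldehyde oxidase Aox1 fell (-0.61 ± 0.11).

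Glucose production genes rose: of 22 tested, 10 were higher and 0 lower in limma (9 and 0 without vehicle 3, 11 and 2 at an unadjusted p under 0.05), with a median of 0.22. Pck1, phosphoenolpyruvate carboxykinase, read 11, 10.02 and 10.53 with vehicle and 11.96, 12.15 and 11.60 with the drug (1.39 ± 0.21). Slc37a4, which carries glucose-6-phosphate into the endoplasmic reticulum, rose from 9.48, 9.51 and 9.65 to 10.36, 10.48 and 10.55 (0.92 ± 0.09). G6pc, the catalytic subunit of the last step, did not follow, at 10.24, 10.23 and 9.80 against 9.48, 10.02 and 9.89 (-0.29 ± 0.33, adjusted p = 0.757). So the transporter of the final step rose while its phosphatase overlapped between the groups. Regulators of the pathway were among those that rose: Foxo1, a forkhead factor held back by insulin (1.17 ± 0.13), Ppargc1a, a coactivator (1.08 ± 0.20, and 0.71 in a second probe set), and Klf15, a factor of amino acid use (0.85 ± 0.13). The transaminases Gpt2 (1.10 ± 0.15) and Got1 (1.13 ± 0.23) and the carboxylase Pcx (0.59 ± 0.12) supply the pathway with carbon. Hnf4a (0.45 ± 0.11, adjusted p = 0.0204) lost its call without any 1 of 5 of the knockout arrays, at 0.43 to 0.48.

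Amino acid breakdown changed in a few genes, while the list median stayed close to that of all genes. Of 47 tested, 6 were higher and 2 lower with a median of -0.06, and without vehicle 3, 4 and 2 with a median of 0.02. The 6 and 2 were 12.8% and 4.26% of the list, against 4.38% and 3.92% of all genes. Tat, which opens tyrosine breakdown, read 11.83, 11.02 and 11.59 with vehicle and 12.93, 12.93 and 12.79 with the drug (1.40 ± 0.15, adjusted p = 6.99e-05). Aass, the first enzyme of lysine breakdown, rose by 1.04 ± 0.14. Of 17 urea cycle and ammonia genes 6 were higher and 1 lower (6 and 0 without vehicle 3), and most that rose were carriers rather than cycle enzymes. The amino acid transporter Slc38a2 rose from 8.96, 9.21 and 9.36 to 11.05, 10.78 and 10.34 (1.54 ± 0.18). The mitochondrial ornithine carrier Slc25a15 rose by 0.90 ± 0.15, the cationic amino acid transporter Slc7a2 by 0.83 ± 0.15 and the aspartate-glutamate carrier Slc25a13 by 0.40 ± 0.08. Cps1, the entry enzyme of the cycle, read 12.60, 12.40 and 12.55 against 12.69, 12.61 and 12.61 and did not pass (0.12 ± 0.09, adjusted p = 0.601), near the top of the intensity range.

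In glycolysis and sugar uptake 4 of 24 genes were higher and 0 lower in limma, and in glycogen metabolism 3 of 22 and 0. Without vehicle 3 the counts were 3 and 0, and 2 and 0, and at an unadjusted p under 0.05 they were 5 and 1, and 3 and 1. The glycogen-targeting phosphatase subunit Ppp1r3c read 7.35, 5.86 and 6.27 with vehicle and 9.38, 9.50 and 9.76 with the drug (3.05 ± 0.30, adjusted p = 2.35e-05). Its relative Ppp1r3b rose by 1.47 ± 0.22. Both recruit a phosphatase to glycogen, while glycogen synthase Gys2 itself stayed short of the threshold (0.26 ± 0.14, adjusted p = 0.368). Pfkfb3, which makes an allosteric activator of glycolysis, rose from 3.89, 5.74 and 5.36 to 7.82, 8.08 and 8.10 (3.00 ± 0.37), and Pfkfb2 from 6.51, 6.49 and 6.49 to 7.62, 7.66 and 7.34 (1.04 ± 0.14). The glucose transporter Slc2a1 rose by 0.85 ± 0.18 and lost its call without dexamethasone 2 (0.72).

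Fat storage and release genes rose in part. Droplet coat proteins, lipases and their partners had 8 of 29 tested members higher and 1 lower (7 and 2 without vehicle 3), with a median of 0.03. Plin5, a droplet coat protein that links droplets to mitochondria, read 5.88, 6.29 and 5.97 with vehicle and 8.53, 8.97 and 8.96 with the drug (2.77 ± 0.14). Plin4 read 3.90, 3.67 and 3.27 against 6.37, 6.21 and 6.03 (2.59 ± 0.21). The common droplet coat gene Plin2 went the other way, from 10.62, 10.79 and 10.33 to 10.02, 9.75 and 8.48 (-1.17 ± 0.29, adjusted p = 0.0221), a call lost without vehicle 1 or vehicle 2, at -1.15 and -1.06. The Plin2 call was also lost with the 6 knockout arrays alone and under the alternative moderation. Members of the same coat family thus moved in opposite directions, the fall resting on a less stable call. The lipases Lipg (2.35 ± 0.27) and Pnpla2 (1.19 ± 0.14) rose, as did the fatty acid uptake gene Cd36 (1.19 ± 0.20).

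Fatty acid synthesis was split, with 5 of 31 genes higher and 5 lower (2 and 2 without vehicle 3). Lpin1, a phosphatidate phosphatase and coregulator, read 7.46, 7.50 and 8.19 with vehicle and 11.31, 11.37 and 11.53 with the drug, a 12.9-fold rise (3.68 ± 0.17, adjusted p = 2.28e-08). Thrsp, a lipogenic nuclear protein, rose from 8.44, 6.75 and 8.47 to 10.29, 10.99 and 11.35 (2.99 ± 0.39). The lipogenic transcription factor gene Mlxipl, which encodes ChREBP, fell from 8.57, 8.56 and 8.13 to 7.40, 7.49 and 7.51 (-0.95 ± 0.13), and the acyltransferase Gpam fell by 0.89 on the log2 scale. Srebf1, another lipogenic factor, fell by 1.00 (adjusted p = 0.0308) with overlapping groups, and its call was lost without any 1 of 4 arrays, at -0.95 to -0.81. In fatty acid oxidation and ketogenesis 8 of 43 genes were higher and 0 lower in limma (5 and 0 without vehicle 3, 12 and 2 at an unadjusted p under 0.05). The ketone-using enzyme gene Oxct1, low in liver, rose from 3.50, 3.09 and 3.55 to 5.13, 6.29 and 5.82 (2.37 ± 0.29), the peroxisome factor Pex11a from 7.92, 8.05 and 7.78 to 9.36, 9.55 and 9.24 (1.47 ± 0.13) and the thioesterase Acot1 by 1.03 ± 0.11, with a probe that may read its close relatives.

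Cholesterol synthesis and uptake genes lay lower, with 0 of 26 higher and 6 lower in limma (1 and 13 at an unadjusted p under 0.05) and a median of -0.31. Without vehicle 3 only 1 of the 6, Stard4, kept its call, and the median was -0.25. Stard4, which moves cholesterol between membranes, read 8.49, 8.62 and 9.05 with vehicle and 7.90, 7.74 and 7.93 with the drug (-0.86 ± 0.16, and -0.70 without vehicle 3). Insig1, a sterol-regulated retention protein, fell by 0.84 and lost its call without any 1 of 4 arrays, at -0.84 to -0.66. Bile acid genes were mixed, with 2 of 31 higher and 4 lower (1 and 3 without vehicle 3). Cyp7a1, the rate-limiting enzyme of bile acid synthesis, was scattered in both groups, at 8.13, 9.27 and 9.38 with vehicle and 7.94, 8.67 and 10.59 with the drug (0.14 ± 0.52, adjusted p = 0.941). The oxysterol hydroxylase Cyp39a1 rose from 7.54, 7.61 and 7.68 to 8.94, 9.09 and 9.15 (1.45 ± 0.12), and the FGF19-type receptor gene Fgfr4 (-0.54 ± 0.10) and the flippase Atp8b1 (-0.73 ± 0.16) fell. Among 23 apolipoprotein and lipoprotein genes 3 were higher and 2 lower (2 and 1 without vehicle 3). Apoa4, an apolipoprotein known to respond to fasting, rose from 8.21, 8.15 and 8.33 to 9.95, 10.62 and 9.69 (1.85 ± 0.23). The lipoprotein lipase inhibitors moved in opposite directions: Angptl8, a gene known to rise with feeding, fell from 7.26, 6.93 and 6.09 to 4.98, 4.88 and 5.54 (-1.63 ± 0.25), and Angptl4 rose by 0.88 ± 0.16.

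Insulin and growth hormone signalling genes changed in both directions, 3 of 27 higher and 5 lower (2 and 3 without vehicle 3). Irs1, an adaptor of the insulin receptor, read 7.08, 6.97 and 6.88 with vehicle and 4.87, 5.42 and 5.97 with the drug (-1.55 ± 0.21, adjusted p = 0.000412). A dim second probe set for Irs1, with group means of 2.24 and 2.19, did not share the fall (-0.05). The receptor gene Insr did not change beyond the threshold (-0.09 ± 0.18), and Irs2 fell short of it (-0.91 ± 0.29, adjusted p = 0.0745) although every treated liver was lower. The secreted factors Inhbe (-1.07 ± 0.23) and Enho (-0.75 ± 0.12) fell; Inhbe lost its call without vehicle 2 or dexamethasone 3, at -0.94 and -0.85. Igfbp1, an IGF-binding protein, overlapped between the groups, at 8.93, 7.13 and 7.10 against 10.98, 10.27 and 8.26 (2.12 ± 0.59, adjusted p = 0.041), and its call was lost without any 1 of 4 arrays, at 1.55 to 1.90. Of 28 SOCS, STAT and cytokine receptor genes 3 were higher and 1 lower (3 and 2 without vehicle 3). The interleukin-6 receptor gene Il6ra rose from 7.34, 7.03 and 6.99 to 8.79, 8.83 and 8.63 (1.63 ± 0.16), and the leptin receptor gene Lepr by 0.64 ± 0.13. Stat5b, a signal transducer of growth hormone, fell by 0.76 (adjusted p = 0.0166), a call lost without vehicle 1 or dexamethasone 3, at -0.60 and -0.59.

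Genes that differ between male and female liver moved in both lists. Of 25 male-biased genes 2 were higher and 5 lower (2 and 4 without vehicle 3), and of 23 female-biased genes 4 were higher and 0 lower (6 and 2 at an unadjusted p under 0.05). The steroid dehydrogenase Hsd3b5, a male-biased gene whose probes may read its paralogs, fell from 9.97, 10.19 and 9.72 to 8.85, 8.65 and 8.83 (-1.18 ± 0.21). The male-biased scavenger receptor Scara5, a ferritin receptor, rose from 4.55, 4.79 and 4.81 to 7.75, 7.79 and 7.59 (2.99 ± 0.12). The female-biased monooxygenase Fmo2 rose by 1.51 ± 0.26, beside Cyp2b10, Sult1e1 and Cd36. The list medians of -0.14 and -0.09 lay close to the -0.01 of all genes.

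The circadian clock showed large, opposite changes in single genes. Of 10 core clock genes, 2 were higher and 2 lower (1 and 1 without vehicle 3). Per1, a period gene with known glucocorticoid induction, read 3.40, 4.06 and 3.63 with vehicle and 5.90, 6.11 and 6.03 with the drug (2.32 ± 0.20, adjusted p = 8.91e-06). Nr1d1, which encodes the repressor REV-ERBα, read 9.52, 9.20 and 9.32 against 7.73, 6.57 and 5.64 (-2.70 ± 0.45, adjusted p = 0.00158). The vehicle livers were level and the treated livers spread widely, all of them below. Arntl, which encodes the activator BMAL1 and is repressed by REV-ERBα, was also lower, at 5.66, 4.46 and 5.09 against 4.04, 3.92 and 3.95 (-1.10 ± 0.26, adjusted p = 0.0188), a call lost without any 1 of 4 arrays, at -1.09 to -0.81. Its partner Clock did not pass (-0.19 ± 0.21).

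Clock output genes had a median of 0.39, with 5 of 14 higher and 1 lower (4 and 0 without vehicle 3). Ciart, a repressor of the clock activators, rose from 3.82, 3.78 and 4.44 to 8.15, 8.38 and 8.28 (4.26 ± 0.38), and its second probe set by 4.88. Usp2, a deubiquitinase with rhythmic expression, rose from 3.76, 4.0 and 4.25 to 7.77, 8.48 and 8.65 (4.30 ± 0.31). Both rises were near 20-fold, at 19.2 and 19.7. Nampt, the rate-limiting enzyme of NAD salvage, rose by 1.88 ± 0.17 and the D-box repressor Nfil3 by 1.92 ± 0.18. Its counterpart, the D-box activator Dbp, overlapped between the groups (-0.49 ± 0.20, adjusted p = 0.201).

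Acute-phase protein genes rose, with 12 of 31 higher and 0 lower in limma (11 and 0 without vehicle 3, 13 and 0 at an unadjusted p under 0.05) and a median of 0.18. Lcn2, an iron-siderophore binding protein, read 5.13, 4.81 and 4.87 with vehicle and 11.53, 11.33 and 10.94 with the drug (6.33 ± 0.16, adjusted p = 5.73e-11). The serum amyloid A gene Saa1 rose from 6.31, 6.05 and 5.18 to 9.97, 9.67 and 9.52 (3.87 ± 0.34), and Saa4 by 1.70 ± 0.13. Orm3, an orosomucoid, rose from 3.81, 3.36 and 4.13 to 6.95, 7.36 and 7.05 (3.35 ± 0.21). Saa and Orm genes have near-identical copies, so the split between members is uncertain. The haemoglobin scavenger haptoglobin, Hp, already at 11.80, 11.81 and 11.59, reached 12.41, 12.36 and 12.33 (0.64 ± 0.10). Of 43 complement and coagulation genes 1 was higher and 1 lower (0 and 1 without vehicle 3), with a median of -0.07. This was 2.33% in each direction, against 4.38% and 3.92% of all genes. The lectin gene Mbl1 fell by 0.65, a call lost without any 1 of 4 arrays, at -0.63 to -0.56.

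Inflammatory genes changed in both directions. Of 41 NF-kB target, chemokine and cytokine genes 2 were higher and 6 lower (2 and 5 without vehicle 3). The share of this list that was higher lay close to the 4.38% of all genes, so only its falls stood out, against 3.92% of all genes. Nfkbia, the inhibitor of NF-kB, rose from 7.10, 7.02 and 7.08 to 8.49, 8.26 and 7.71 (1.09 ± 0.18), and the adhesion receptor gene Vcam1 rose from 4.92, 4.71 and 5.06 to 7.14, 7.39 and 7.22 (2.35 ± 0.12). The chemokine Cxcl10 fell from 4.31, 3.92 and 3.62 to 2.77, 2.73 and 2.45 (-1.30 ± 0.17), and the TNF-induced gene Tnfaip2 from 7.14, 5.70 and 5.62 to 4.39, 4.27 and 3.94 (-1.96 ± 0.30). Among 39 interferon genes 3 were higher and 3 lower (2 and 3 without vehicle 3), and the median was -0.13. Usp18, a brake on interferon receptor signalling, rose from 4.93, 4.38 and 4.17 to 6.25, 7.41 and 7.0 (2.39 ± 0.25). Phf11c, a PHD finger gene outside this list, rose from 5.06, 4.75 and 4.25 to 9.31, 8.67 and 7.96 (3.96 ± 0.33). The factor Irf1 fell by 1.40 (± 0.24), while its dim second probe set, with group means of 2.82 and 2.57, differed by -0.25. Gbp11, a guanylate-binding protein also outside the interferon list, fell by 1.84 and lost its call without any 1 of 5 arrays, at -1.86 to -1.54.

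**Figure D3:**
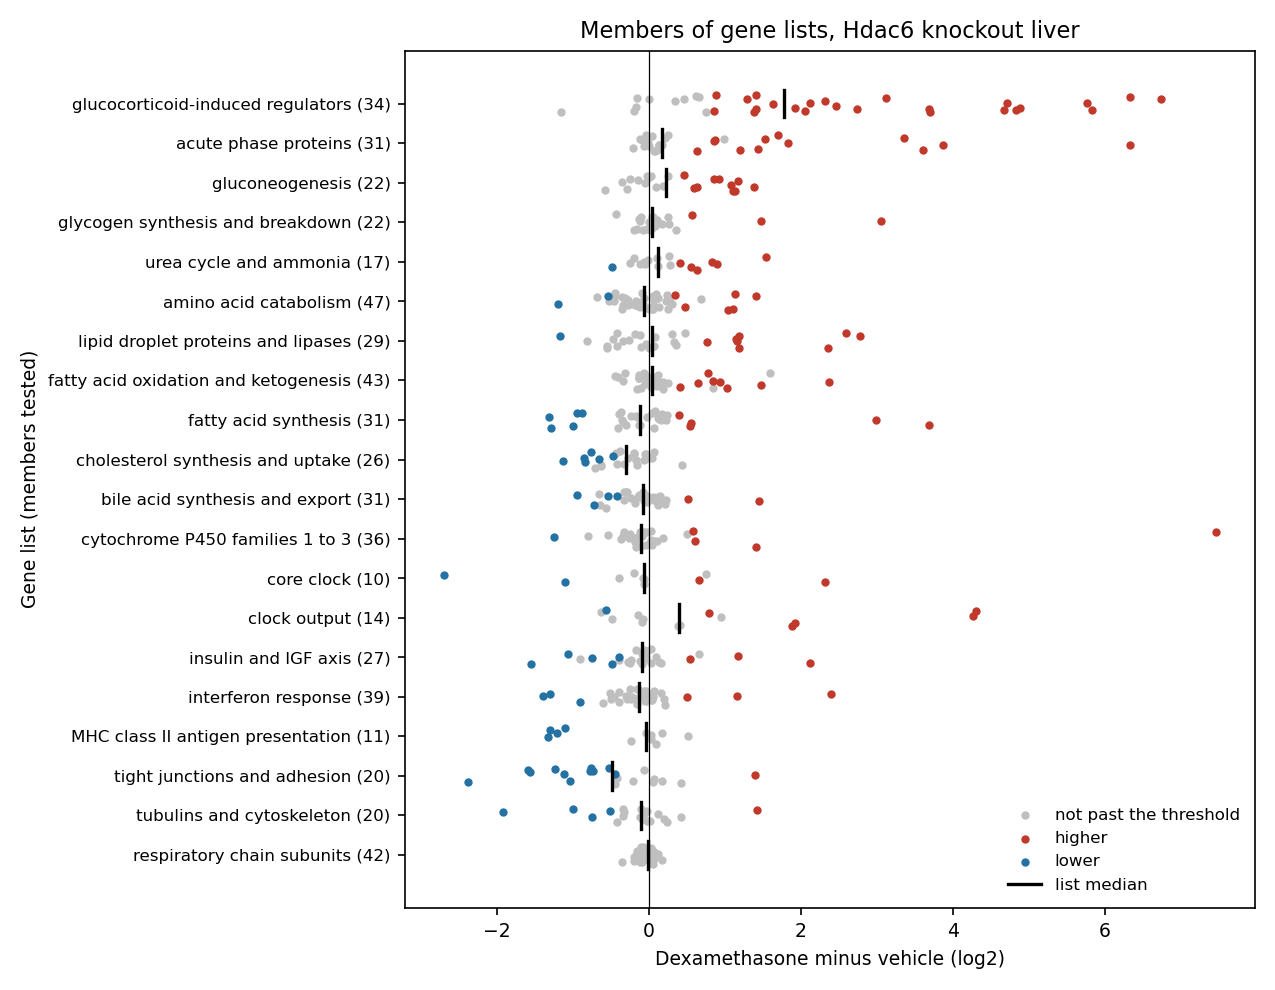
Change with dexamethasone (log2, horizontal axis) of each tested member of 20 gene lists in Hdac6 knockout liver, with the list median as a black line and members past the threshold in red (higher) or blue (lower). The glucocorticoid-induced list has the highest median, 1.78, tight junctions the lowest, -0.49, and the 42 respiratory chain subunits lie close to 0 with none past the threshold.

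The steepest falls lay outside the classical metabolic targets. Arrdc3, an arrestin-domain gene that regulates receptor traffic, read 9.95, 9.44 and 9.84 with vehicle and 5.76, 5.92 and 5.89 with the drug (-3.88 ± 0.26, adjusted p = 7.82e-07). Osgin1, an oxidative-stress growth inhibitor, read 9.44, 8.99 and 8.65 against 5.33, 5.28 and 5.01 (-3.82 ± 0.17, adjusted p = 2.12e-08). These were the 2 falls of at least 8-fold, and both left the groups far apart. Osgin1 belongs to the NRF2 targets, of which 0 of 21 were higher and 2 lower in limma (0 and 6 at an unadjusted p under 0.05); the other was the regulator Nfe2l2 itself (-0.63 ± 0.11). Id2 and Id3, inhibitors of basic helix-loop-helix factors, fell from 10.14, 10.18 and 10.46 to 8.57, 7.78 and 7.59 (-2.28 ± 0.27) and from 5.96, 6.20 and 6.34 to 4.69, 4.63 and 4.04 (-1.71 ± 0.24). In the immediate-early list that holds them 3 of 33 were higher and 4 lower, with the MAP kinase phosphatase Dusp1 up from 8.27, 7.63 and 8.07 to 9.74, 9.58 and 9.57 (1.64 ± 0.23). The ubiquitin ligases Rnf125 (-2.15 ± 0.29), Rnf186 (-2.06 ± 0.24) and Rnf152 (-1.83 ± 0.18), the succinate receptor Sucnr1 (-1.94 ± 0.29), and Depdc7 (-2.07 ± 0.19) and Ppfibp2 (-1.75 ± 0.13) also fell. The forkhead gene Foxq1 read 6.32, 7.72 and 8.32 against 5.84, 5.03 and 6.25, and its call (-1.74 ± 0.48) was lost without any 1 of 4 arrays, at -1.81 to -1.31.

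Tight junction and adhesion genes fell, with 11 of 20 lower and 1 higher and a median of -0.49. Without vehicle 3 the counts were 6 lower and 2 higher at the same median of -0.49. Cldn1, a claudin that seals bile canaliculi, was level under vehicle at 9.0, 8.95 and 8.91 and spread under the drug at 7.88, 6.62 and 5.22 (-2.38 ± 0.46, adjusted p = 0.00529). Cldn3 fell from 7.38, 7.25 and 7.20 to 5.84, 5.63 and 5.66 (-1.57 ± 0.12), and the pore-forming Cldn2 from 6.95, 6.88 and 6.99 to 5.95, 5.52 and 5.63 (-1.24 ± 0.13). The scaffold gene Tjp3 fell by 1.03 (± 0.15). The exception was Cldn14, up from 5.54, 5.60 and 5.47 to 7.17, 6.75 and 6.86 (1.39 ± 0.15).

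Of deacetylase and tubulin genes, which are close to Hdac6 in function, most that passed fell. Of 18 histone deacetylases and sirtuins 0 were higher and 3 lower in limma (0 and 2 without vehicle 3, 0 and 4 at an unadjusted p under 0.05); 16.7% were lower, against 3.92% of all genes. Hdac5, a class II deacetylase, fell from 6.29, 5.92 and 5.87 to 5.27, 5.34 and 5.0 (-0.82 ± 0.16), while Hdac8 and Hdac11 lost their calls without any 1 of 4 and of 5 arrays, at -0.69 to -0.52 and at -0.48 to -0.36. Among 20 tubulin and cytoskeleton genes 1 was higher and 4 lower, with a median of -0.10. The tubulin gene Tubb2a fell from 6.56, 6.05 and 6.08 to 4.56, 4.19 and 4.16 (-1.92 ± 0.20) and Tuba4a by 0.76 (± 0.14), whereas Tuba8 rose (1.42 ± 0.26). Atat1, the tubulin acetyltransferase that acts against Hdac6, fell from 5.12, 5.31 and 5.06 to 4.79, 4.65 and 4.51 (-0.51 ± 0.11, adjusted p = 0.00745). In autophagy and aggregate clearance 4 of 31 were higher and 3 lower (3 and 0 without vehicle 3), with a median of -0.03. Sqstm1 was among those that fell (-0.53 ± 0.12, adjusted p = 0.0158), a call lost without any 1 of 3 arrays, at -0.51 to -0.39. The mitophagy receptor gene Bnip3 rose from 9.19, 9.55 and 9.68 to 10.62, 10.54 and 10.69 (1.15 ± 0.12), Sesn1, an mTORC1 inhibitor, by 0.77 ± 0.12 and the autophagosome gene Map1lc3b by 0.77 ± 0.13, with a second probe set at 2.15.

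Liver-enriched transcription factors were split, 5 of 33 higher and 6 lower (3 and 4 without vehicle 3). Cebpb rose from 6.80, 6.96 and 6.77 to 8.43, 8.16 and 8.16 (1.41 ± 0.14) and Cebpd from 2.93, 3.13 and 3.12 to 4.75, 3.95 and 4.36 (1.29 ± 0.20); both encode C/EBP factors active in the acute-phase response. The orphan receptor gene Nr2f2 fell from 7.45, 7.28 and 7.42 to 6.37, 6.45 and 6.42 (-0.97 ± 0.10). Of 33 genes of endoplasmic reticulum stress and heat shock 3 were higher and 1 lower (2 and 1 without vehicle 3). Herpud1, a component of protein degradation at that membrane, rose by 0.92 ± 0.09 and the co-chaperone Dnajb9 by 0.59 ± 0.12, while the stress sensor Ern1 fell by 0.78 (± 0.16), a call lost in the 8 arrays without pancreas transcripts (-0.73, adjusted p = 0.0633). Of 42 respiratory chain subunits 0 passed in limma in either direction, also at an unadjusted p under 0.05, and the median was -0.01.

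Most markers of liver cell types did not pass. The hepatocyte marker albumin, Alb, read 13.11, 13.11 and 13.07 with vehicle and 13.12, 13.04 and 13.05 with the drug, near the upper end of the scale. Of 11 hepatocyte markers 2 were higher, Tat and Hnf4a (1 without vehicle 3). Of 16 Kupffer cell markers 1 was higher, the haemoglobin scavenger receptor Cd163, which rose from 6.41, 6.58 and 6.40 to 7.96, 7.99 and 7.34 (1.30 ± 0.28); the defining marker Clec4f differed by -0.13 ± 0.17. Of 16 endothelial markers 2 were higher and 3 lower (2 and 1 without vehicle 3). The hyaluronan receptor Lyve1 rose from 4.94, 5.12 and 4.51 to 7.07, 7.66 and 7.68 (2.62 ± 0.17) and the VEGF receptor Kdr fell from 7.40, 7.27 and 7.72 to 6.66, 6.31 and 6.30 (-1.04 ± 0.14), while the general marker Pecam1 differed by 0.01 ± 0.13. Markers of 1 cell type thus moved in opposite directions.

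Of 11 genes of MHC class II antigen presentation 4 were lower and 0 higher in limma (2 and 0 without vehicle 3, 5 lower and 1 higher at an unadjusted p under 0.05). The list's median was -0.04, and 5 of the 11 lay above 0, so the falls were those of 4 genes. The invariant chain gene Cd74 read 7.44, 6.89 and 7.30 with vehicle and 5.78, 6.50 and 5.36 with the drug (-1.33 ± 0.27, adjusted p = 0.00629). H2-Aa, which encodes the alpha chain of a class II molecule, read 8.08, 7.18 and 7.49 against 6.28, 6.82 and 5.72 (-1.31 ± 0.28). H2-Ab1 (-1.21) and H2-Eb1 (-1.10) lost their calls without any 1 of 4 and of 3 arrays, at -1.22 to -0.91 and at -1.05 to -0.87. For each of these 4 genes dexamethasone 2 was the highest treated liver and vehicle 2 the lowest vehicle liver. The mean over the 11 markers, 4.53, 4.14 and 4.30 with vehicle and 3.88, 4.17 and 3.72 with the drug, overlapped between the groups. The B cell markers, which share Cd74, had 1 of 10 lower, and T and NK cell markers (0 of 14), neutrophil markers (0 of 12) and cholangiocyte markers (0 of 7) gave no call in limma; at an unadjusted p under 0.05 there were 2, 0 and 0, in this order. Stellate cell markers had 1 of 16 lower (0 without vehicle 3). It was Pdgfrb, whose call was lost without any 1 of 3 arrays, vehicle 3 among them, at -0.66 to -0.59.

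**Figure D4:**
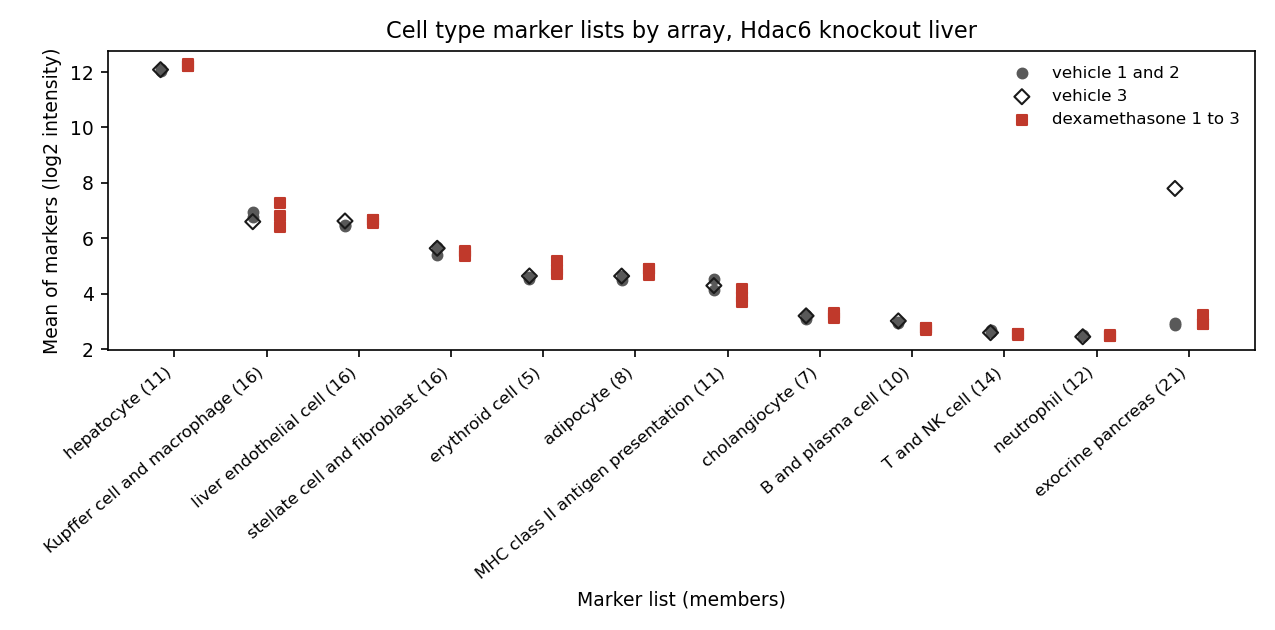
Mean log2 intensity (vertical axis) of each cell type marker list in each of the 6 knockout arrays, with the number of markers in brackets; points are compared within a list, not between lists. The 2 groups lie close for most lists, and vehicle 3 stands apart for the 21 exocrine pancreas markers, at 7.80 against 2.90 to 3.22 in the other 5 arrays.

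The mean of the pancreas markers read 2.90, 2.94 and 7.80 with vehicle and 2.92, 3.22 and 2.92 with the drug, so all 21 had a change below 0 with a median of -1.58, and without vehicle 3 the median was 0.09. In limma 0 of the 21 passed, also at an unadjusted p under 0.05. Calls lost without vehicle 3 included those of Insig1 (-0.77 without it), H2-Ab1 (-1.22) and H2-Eb1 (-1.05). Leaving out vehicle 3 kept 990 of the 1485 calls, a number within the 947 to 1186 kept when another knockout array was left out. Of the steepest rises and falls without it, Cyp2b10 was at 7.47, Mt2 at 6.78, Lcn2 at 6.29, Fkbp5 at 4.74, Arrdc3 at -3.83, Osgin1 at -4.01 and Nr1d1 at -2.72. Others shrank: Saa1 was at 3.54, Rnf186 at -1.74, and Gbp11 (-1.54) and Foxq1 (-1.31) lost their calls.

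**Figure D5:**
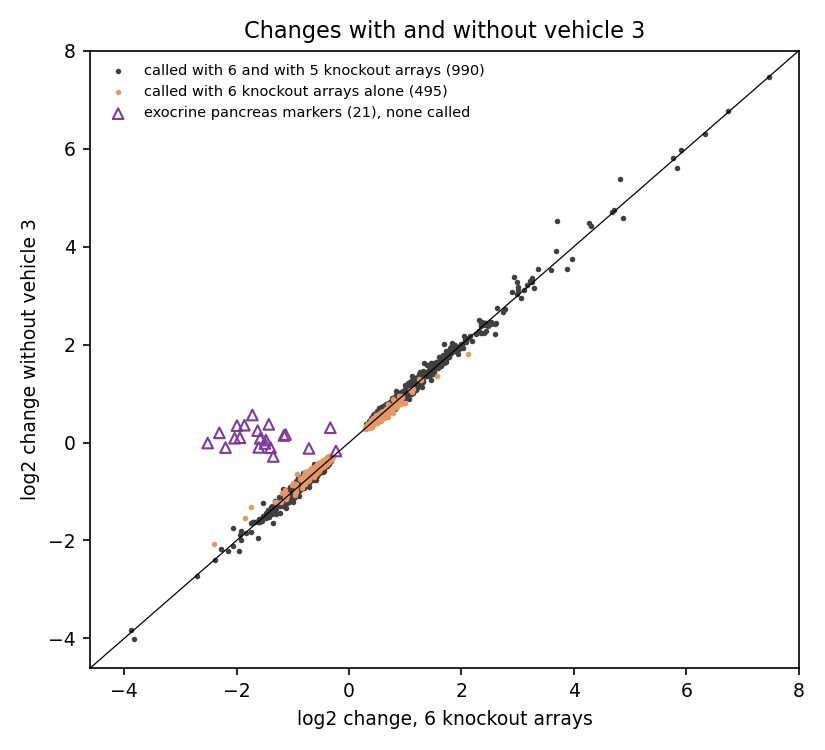
Log2 change of each of the 1485 called genes with all 6 knockout arrays (horizontal axis) and without vehicle 3 (vertical axis), with the line of equal change; 990 genes passed both ways and the rest with 6 arrays alone. Called genes follow the line, and the 21 exocrine pancreas markers (triangles), none of them called, shift from a median of -1.58 to 0.09.

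The test of whether the response differed from that in wild-type livers, the interaction in limma over all 12 arrays, called 0 of 17904 genes, with 1109 (6.19%) at an unadjusted p under 0.05. The smallest adjusted p was 0.0756, for Rasa3, a Ras GTPase-activating gene, which changed by 0.17 in the knockout and -1.02 in wild type. Among the 1485 genes, 1034 also passed in the same direction in wild type, 0 in the opposite one, and 413 of the other 451 had the same sign. Among clock genes, Usp2 rose by 4.30 against 1.76 in wild type (adjusted p = 0.25 for the difference), Per1 by 2.32 against 0.92 (adjusted p = 0.337), and Arntl read -1.10 against 0.55 (adjusted p = 0.424). Dusp1 (1.64 against 3.21) and Acot1 (1.03 against 2.02, adjusted p = 0.159) leaned the other way. These genes were picked after their values were seen, and a missed threshold with 3 animals a group does not show that the genotypes respond alike. In the 8 arrays free of pancreas transcripts 1 gene, Ciart, passed this test (2.01 wider in the knockout, adjusted p = 0.0305), with a single wild-type vehicle array left, which is assumed to vary as the other groups do.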

How the data were processed

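RNA from 12 mouse livers was hybridised to Affymetrix whole-transcript arrays. The authors deposited log2 values for 34760 probe sets, for which the submitters' processing notes name R 2.10.0 and affy. How background and normalisation were handled was not given in the sources used here. Of the probe sets, 21640 carried 1 gene symbol in the array annotation, 1321 several and 11799 none. The highest-mean probe set stood for a gene, and genes above the 20th percentile of their array in at least 3 of 12 arrays were kept (17904).

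The fit of group means to all 12 arrays used limma 3.58.1 (R 4.3.3, and for tables data.table, version 1.17.8) and had 8 residual and 5.07 prior degrees of freedom. The number of arrays limits the precision. The fit was tested on simulated data. Named genes were Hdac6, the 15 largest rises and falls that passed without overlap, and up to 4 (8 in 5 lists) members with the smallest p, and also the first 3, of each list; the members and lists were chosen with earlier results of these data known. Promoters came from RefSeq GRCm38.p6. Alternatives were other filters, normalisations, probe set rules, moderation, array weights, a replicate block and fits without single arrays.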

Additional observations from a re-analysis of the deposited data

Results flagged for a closer look

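Probe sets with several gene symbols or none lay outside the comparisons above. Of 10559 of them above the filter, 34 were higher and 10 lower with dexamethasone in the knockout livers in limma. Among the 17904 genes tested above, 784 were higher (4.38%) and 701 lower (3.92%). The 34 and 10 probe sets are not named, because the annotation ties none of them to a single gene.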

How the results depend on the processing

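The 784 rises stayed between 539 and 713 when 1 knockout array was left out, and the 701 falls between 454 and 653. Without the 4 arrays with pancreas transcripts 582 genes were higher and 463 lower, 957 of the 1485 being kept; the cause of the lower count was not tested. All 1485 kept their sign under each alternative that tested them, which for the 1471 without overlap could not change when arrays were left out. Other settings gave 753 to 913 rises and 610 to 835 falls, the 610 with arrays centred on their median, where 809 were higher, and the 6 knockout arrays alone gave 692 and 622. Equal replicate numbers did not pair the samples: deviations of same-numbered arrays correlated at 0.10, -0.06 and -0.03. With the replicate number as a block, 753 genes were higher and 687 lower, and 0 differed between genotypes. That count, 0 in limma, became 1 without the arrays with pancreas transcripts (Ciart) and ranged from 0 to 3 without single arrays: Per1 (1.66) and Usp2 (3.00) without wild-type vehicle 1; Myh1 (1.59), Rasa3 (1.25) and Spink1 (1.40) without wild-type vehicle 3; Rasa3 (1.29) without knockout vehicle 3; and Cxcl1 (1.36) without knockout dexamethasone 3. Of 170 named genes past the threshold, 128 kept their call without any 1 knockout array. Calls were rare among dim genes, 21 higher and 19 lower in the lowest of 3 equal classes of level against 531 and 374 in the highest.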
